A study of Homo sapiens with 12 samples.

Results

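The 10 genes described here fall into 3 sets of immediate-early genes by name and also include ARC. The sets are the IER genes IER2, IER3, IER5 and IER5L, the NR4A genes NR4A1, NR4A2 and NR4A3, and the CCN genes CCN1 and CCN2. A shared name does not make a set 1 gene family. The 10 genes were chosen by name, with earlier results of these data known. Each was represented by the array feature with the highest mean among the features annotated to that gene alone. All 10 were measured, of 18417 genes in all. IER3 had 3 features and the others 1 each.

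The RNA was from MDA-MB-231, a long-established line of human breast cancer that lacks hormone receptors and HER2. It was used in its parental form and after treatment to resistance (TTR). TRAIL is a death ligand of the TNF family that triggers apoptosis through cell-surface death receptors. Each form was taken untreated and after TRAIL at 100 ng per ml for 2 hours, with 3 arrays in each of the 4 groups and 12 in all. The labels do not give the genotype, the agent or schedule that made the TTR form, nor whether it is a clone or a pool, and no allele or transgene is listed for any group. Separate cultures are not stated for the replicates, so the p-values reflect the spread among these arrays alone, which may be technical, and the number of arrays limits the precision. An unexplained tag in the sample descriptions differs between parental and TTR arrays, and its meaning and the line cannot be told apart.

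Immediate-early genes are transcribed within minutes of a stimulus from transcription factors that are already present, without new protein synthesis. Growth factors, stress, calcium and cyclic AMP reach them through MAP kinases, SRF with its partners, CREB and NF-kB, and the actin and Hippo pathways reach the CCN genes through SRF and through YAP with TEAD. Their products act in different places: the IER proteins regulate survival, phosphatase activity and transcription, the NR4A proteins are orphan nuclear receptors that bind DNA, and CCN1 and CCN2 are secreted matrix proteins that bind integrins. ARC is a cytoskeleton-associated protein known mainly from neurons, where it adjusts synapses after activity.

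The deposited values are levels on a log2 scale, each relative to the rest of its array, and changes below are differences of such levels with the standard error (SE) of the limma fit after ±. A gene was called at a Benjamini-Hochberg adjusted p under 0.05 over all 18417 genes. The parental arrays with TRAIL differed from the other 9 in their median over all features, which was 4.58 to 4.61, against 4.24 to 4.31 in untreated arrays of either line and 4.377 to 4.400 in TRAIL-treated TTR arrays. Counts and medians of the 10 genes that this shift touches are therefore mostly also given after centring each array on its median. Other values are from the levels as deposited unless another processing is named, and those with parental TRAIL arrays can move with it. Of the markers of basal and mesenchymal breast cancer lines 9 of 9 were measured, and their mean level was 9.05 to 9.91 over the arrays. It was 9.60 to 9.78 in untreated and 9.05 to 9.15 in TRAIL-treated parental cells, and 9.61 to 9.91 and 9.72 to 9.83 in TTR cells. SPARC, the lowest of these markers, had group means of 3.97 to 4.62. The mean levels of markers of blood cells (5 of 6 measured, 3.18 to 3.52) and of fibroblasts and endothelium (8 measured, 3.40 to 3.71) stayed low on every array. Single markers could lie higher. The collagen COL1A1 had group means of 5.21 to 5.90, against a median of 5.11 over all genes. PECAM1 was at 4.72 in untreated parental cells and at 3.57 to 3.85 in the other groups. The 7 markers of luminal breast cells, all measured, had a mean level of 4.68 to 4.94 over the arrays. Among them the hormone receptors ESR1 and PGR had group means of 3.55 to 3.77 and 2.38 to 2.77, while the keratin KRT19 was at 7.79 to 8.34 and SPDEF at 6.29 to 6.44. With TRAIL in parental cells 2 luminal markers rose and 0 fell. Of the basal and mesenchymal markers 7 fell and 1 rose with TRAIL in parental cells, where 29.9% of all genes were called lower and 28.9% higher. The luminal and basal counts are on the values as deposited only, so they can depend on the shift in array medians. After median centring 46.7% of all genes were called lower and 12.6% higher. The part of these markers in the results below was not tested. In bulk RNA, fewer cells of a kind and less RNA per cell cannot be told apart.

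RefSeq promoter windows of assembly GRCh38.p14, from 250 bases before to 50 bases after a gene's start, were matched for 6 of the 10 genes (IER2, IER5, IER5L, NR4A1, NR4A3 and CCN2). The windows of the largest responder, of an NR4A gene and of the CCN gene whose rise did not pass in TTR cells are printed to show which known early-gene motifs they hold. Capitals mark matches on either strand to TGACG (the core of the CRE bound by CREB), GGAATG (bound by TEAD), the kappa-B motif and TATAAA.
IER2, chr19:13150161-13150460, + strand: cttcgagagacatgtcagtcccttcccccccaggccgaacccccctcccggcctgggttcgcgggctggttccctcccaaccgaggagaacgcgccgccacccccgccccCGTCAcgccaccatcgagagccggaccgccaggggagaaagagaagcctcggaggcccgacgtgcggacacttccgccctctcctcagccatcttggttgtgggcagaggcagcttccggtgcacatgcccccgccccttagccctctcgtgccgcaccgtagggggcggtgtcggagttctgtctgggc
NR4A3, chr9:99821635-99821934, + strand: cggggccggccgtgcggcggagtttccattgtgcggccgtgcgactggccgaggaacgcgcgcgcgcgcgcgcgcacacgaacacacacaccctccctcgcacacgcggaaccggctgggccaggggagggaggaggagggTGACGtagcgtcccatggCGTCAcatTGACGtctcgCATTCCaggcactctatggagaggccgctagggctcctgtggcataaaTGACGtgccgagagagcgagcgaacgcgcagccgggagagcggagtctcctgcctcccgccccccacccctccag
CCN2, chr6:131951323-131951622, - strand: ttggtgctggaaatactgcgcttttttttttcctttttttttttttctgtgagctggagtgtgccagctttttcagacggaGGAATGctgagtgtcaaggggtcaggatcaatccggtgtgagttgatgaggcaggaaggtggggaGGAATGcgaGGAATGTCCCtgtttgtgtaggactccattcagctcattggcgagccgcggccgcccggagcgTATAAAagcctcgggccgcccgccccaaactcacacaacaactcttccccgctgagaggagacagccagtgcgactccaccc

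The CCN2 window held 3 matches to GGAATG, against at least 1 in 14% of the 34943 windows of that length, and a TATAAA, found in 11.6%. Its kappa-B match, present in 5.9% of windows, overlaps the GGAATG nearest the start. The NR4A3 window held 4 matches to TGACG, against at least 1 in 24.5% of windows, and 1 to GGAATG. The IER2 window held 1 such core. The core was added to the search after the NR4A3 window had been read, while the full CRE TGACGTCA (1.84% of windows), the AP-1 motif TGACTCA (4.96%) and the CArG box of SRF (1.3%) were not matched in any member's window. The IER5, IER5L and NR4A1 windows held no match to any of the 7 motifs. GC content was 69.7% in the IER2 and NR4A3 windows and 54.3% in that of CCN2, against a median of 58.7%. These letters say nothing of which factor acted in these cells.

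The first comparison asked how the 10 genes responded to TRAIL in parental cells. All 10 rose, by 1.97-fold to 16.2-fold, and in each the 3 treated arrays lay above the 3 untreated ones. Over all genes 28.9% were called higher (12.6% after median centring), and 31.2% had treated arrays wholly above untreated ones. The median change of the 10 was 2.29, or 2.00 after median centring, against 0.05 and −0.24 over all genes.

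IER2, a nuclear protein of early growth responses, was at 6.45, 6.29 and 6.24 on the untreated and at 10.42, 10.42 and 10.20 on the TRAIL arrays of parental cells. The groups were far apart, and the rise of 4.02 ± 0.11 (16.2-fold, adjusted p = 1.32e-13) was the 35th largest of 18417. IER5, which works with a phosphatase on heat shock factor, was at 7.13, 7.14 and 6.91 without and at 9.58, 9.98 and 9.58 with TRAIL. It rose 6.29-fold (2.65 ± 0.12, adjusted p = 5.74e-11). Its relative IER5L was at 5.97, 6.02 and 6.42 untreated and at 8.32, 8.56 and 8.42 treated, a rise of 2.30 ± 0.14 (4.92-fold). IER3, an early gene linked to survival and NF-kB, was at 10.69, 10.44 and 10.54 untreated and at 12.002, 11.977 and 11.901 treated. Its rise was the smallest of the IER genes (1.40 ± 0.09, 2.64-fold, adjusted p = 2.67e-09). The other features of IER3 had the same values as each other and rose by 1.48.

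The NR4A receptors also rose together. NR4A2 (NURR1) was at 4.62, 5.09 and 4.68 untreated and at 7.98, 8.28 and 7.98 with TRAIL, a rise of 3.28 ± 0.18 (9.72-fold, adjusted p = 4.30e-10). NR4A3 (NOR1) was at 3.53, 3.64 and 3.59 and rose to 5.88, 6.13 and 6.00, by 2.41 ± 0.11 (5.33-fold). NR4A1 (NUR77), a receptor that can also act at mitochondria in cell death, was at 4.29, 4.22 and 4.69 and rose to 6.54, 6.81 and 6.66, by 2.27 ± 0.12 (4.84-fold). No detection call was used, so low untreated levels such as those of NR4A3 can be background, and a fold from them is then an understatement.

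The CCN genes moved least. CCN1 (CYR61) was at 10.23, 10.37 and 10.33 untreated and at 11.29, 11.33 and 11.27 with TRAIL, a rise of 0.99 ± 0.10 (1.98-fold, adjusted p = 2.44e-07). CCN2 (CTGF) was within 10.11 to 10.13 on the untreated arrays and at 11.15, 11.11 and 11.03 on the treated ones, a rise of 0.98 ± 0.09 (1.97-fold). After median centring these rises were 0.70 and 0.69 and still passed (adjusted p = 1.58e-05 and 4.32e-06). ARC was at 5.28, 5.07 and 5.06 and rose to 7.09, 7.69 and 7.24, by 2.20 ± 0.13 (4.59-fold, adjusted p = 7.17e-10), with the widest spread of any member among treated parental arrays (SD 0.31).

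**Figure D1:**
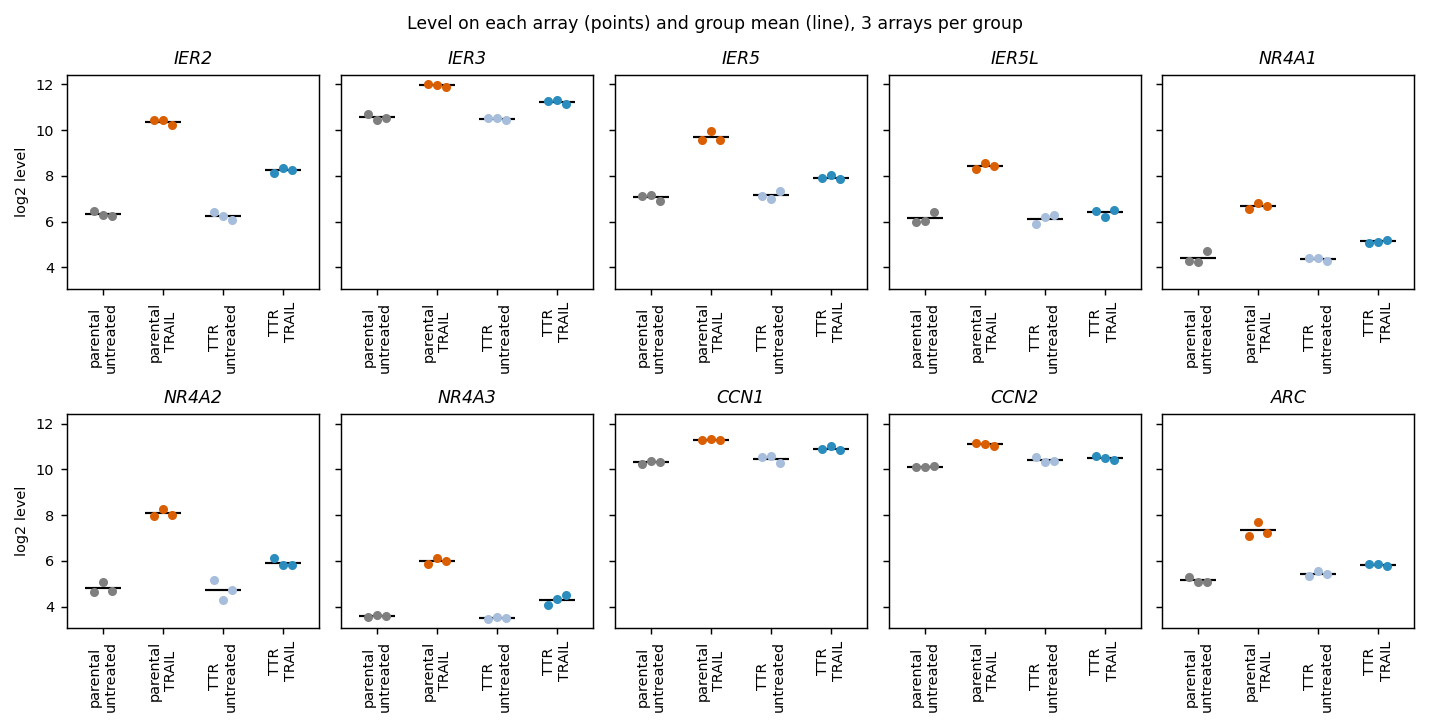
Level (log2) of each of the 10 genes on every array, with points for arrays and a line for the mean of each group of 3. Parental TRAIL arrays are the highest group in each panel, TTR TRAIL arrays lie between them and the untreated arrays, and in IER5L and CCN2 the TTR TRAIL and TTR untreated points overlap.

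The second comparison asked how the same dose acted in TTR cells. By limma 7 of the 10 rose and 0 fell (8 and 0 at an unadjusted p under 0.05), against 3.27% of all genes called higher (2.43% after median centring). For 8 of them the treated arrays lay wholly above the untreated ones, against 11.2% of all genes. The median change was 0.75, or 0.64 after median centring, against −0.01 and −0.11 over all genes.

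IER2 again rose most, from 6.42, 6.23 and 6.07 to 8.14, 8.32 and 8.27, by 2.00 ± 0.11 (4.01-fold, adjusted p = 5.09e-09), the 32nd largest rise of 18417. IER5 went from 7.14, 6.99 and 7.33 to 7.92, 8.02 and 7.84 (0.77 ± 0.12, 1.71-fold, adjusted p = 0.00125) and IER3 from 10.54, 10.51 and 10.45 to 11.25, 11.31 and 11.13 (0.73 ± 0.09, 1.66-fold, adjusted p = 1.62e-04). IER5L did not pass: it was at 5.90, 6.19 and 6.27 untreated and at 6.48, 6.20 and 6.51 with TRAIL, with overlapping groups (0.28 ± 0.14, adjusted p = 0.264). In parental cells IER5 and IER5L had risen by 2.65 and 2.30.

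Each NR4A gene rose in TTR cells. NR4A2 went from 5.17, 4.27 and 4.70 to 6.12, 5.80 and 5.80, by 1.19 ± 0.18 (2.29-fold, adjusted p = 9.16e-04), with untreated arrays more spread than in any other group of a member (SD 0.45). NR4A3 went from 3.47, 3.55 and 3.52 to 4.08, 4.32 and 4.50 (0.79 ± 0.11, 1.73-fold) and NR4A1 from 4.41, 4.41 and 4.28 to 5.05, 5.12 and 5.21 (0.76 ± 0.12, 1.69-fold). All treated arrays of the NR4A genes lay above their untreated ones.

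CCN1 and ARC lay near the threshold of the test in TTR cells and CCN2 far from it. CCN1 went from 10.56, 10.57 and 10.28 to 10.877, 11.0004 and 10.838 (0.44 ± 0.10, 1.35-fold, adjusted p = 0.0172). That call was lost when TTR untreated array 3 was left out (adjusted p = 0.0878), and likewise for the TTR arrays with TRAIL numbered 1 (0.0536) and 2 (0.102), with 0.00462 to 0.102 spanned by all alternatives. CCN2 was at 10.53, 10.34 and 10.35 untreated and at 10.58, 10.50 and 10.43 with TRAIL, with overlapping groups, and did not pass (0.09 ± 0.09, adjusted p = 0.624, or −0.01 after median centring). ARC went from 5.33, 5.54 and 5.42 to 5.86, 5.85 and 5.79, with no overlap, and did not pass (0.41 ± 0.13, adjusted p = 0.0803). It passed in the fit of the TTR groups alone with the replicate number as a block (adjusted p = 0.0156), without parental TRAIL array 2 (0.0187), with array weights (0.0202) and with only the TTR groups in the fit (0.0273), over a range of 0.0156 to 0.271.

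**Figure D2:**
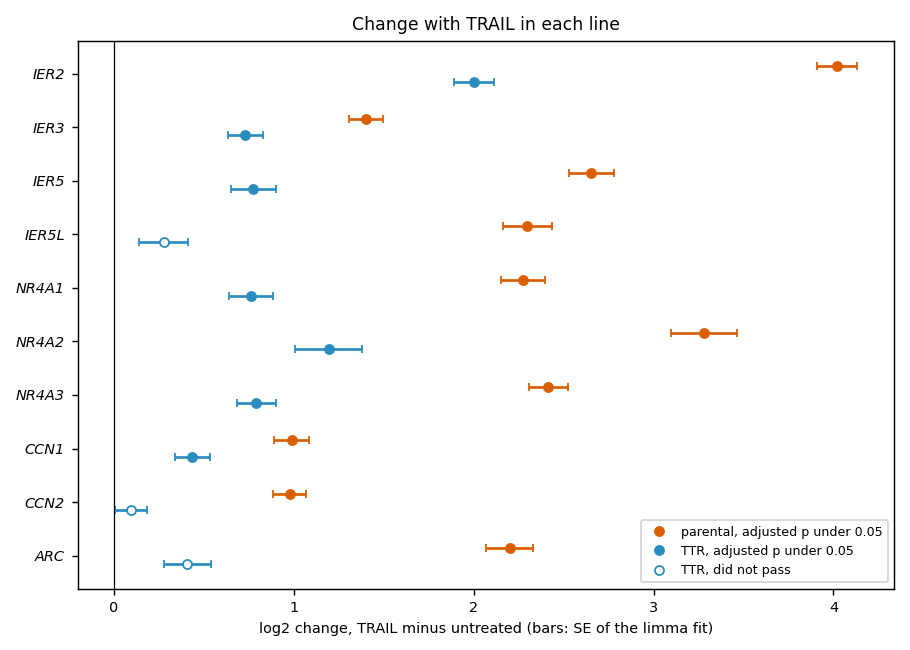
Change with TRAIL (log2, TRAIL minus untreated) of each gene in parental and TTR cells, with bars for the SE of the limma fit and open points for changes that did not pass. Each TTR point lies left of the parental point, from 0.09 for CCN2 to 2.00 for IER2 in TTR cells and from 0.98 to 4.02 in parental cells.

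**Figure D3:**
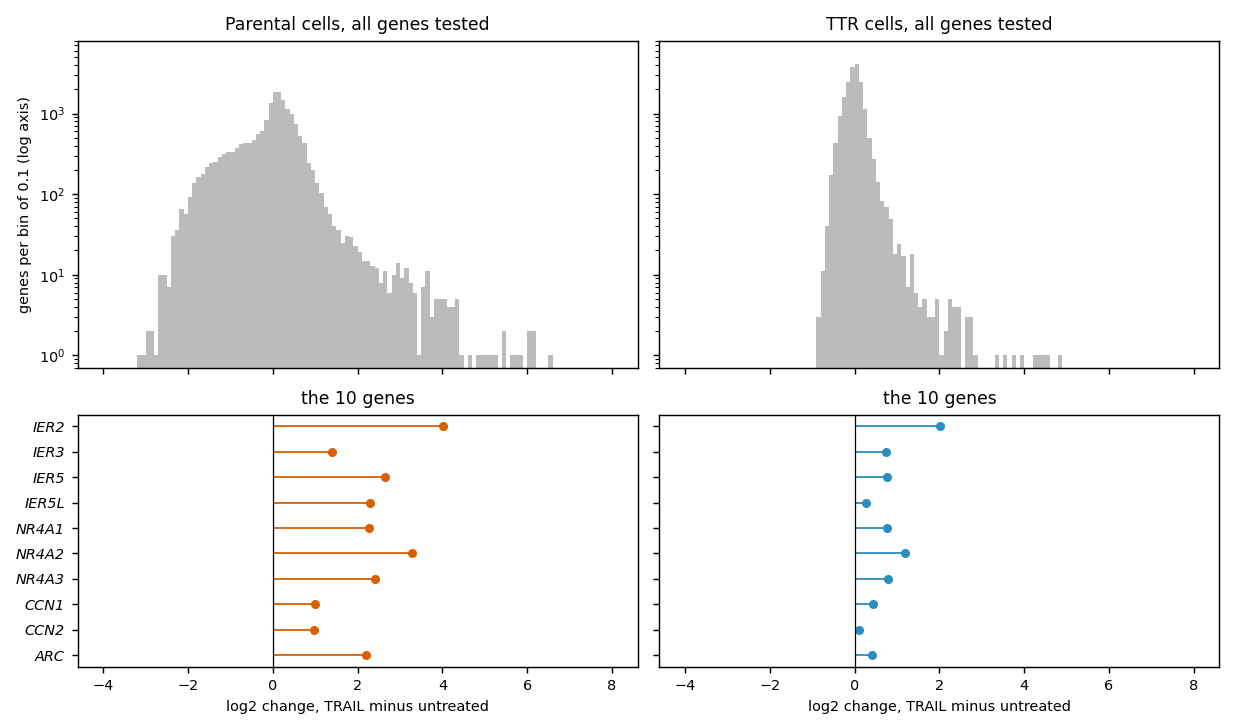
Histogram of the TRAIL change (log2) of all 18417 genes in each line, on a log axis, above the changes of the 10 genes on the same scale. The 10 genes lie on the right of 0 in both lines, and the spread of all genes is wider in parental than in TTR cells.

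Whether the lines differed in their TRAIL change had its own test (change in TTR cells minus change in parental cells). By limma all 10 genes passed with a value below 0, against 14.3% of all genes called lower (6.92% after median centring, when 9 of the 10 passed). The median difference of the 10 was −1.71, or −1.52 after median centring, against −0.03 and 0.15 over all genes. NR4A2 (−2.09 ± 0.26, adjusted p = 1.25e-05), IER5L (−2.02 ± 0.19, adjusted p = 1.41e-06) and IER2 (−2.02 ± 0.16, adjusted p = 2.95e-07) differed most, by 4.25-fold, 4.06-fold and 4.05-fold. IER5 (−1.88 ± 0.18), ARC (−1.79 ± 0.18), NR4A3 (−1.62 ± 0.15) and NR4A1 (−1.51 ± 0.17) followed. CCN2 (−0.88 ± 0.13, adjusted p = 4.96e-05), IER3 (−0.67 ± 0.13, adjusted p = 8.28e-04) and CCN1 (−0.55 ± 0.14, adjusted p = 0.00526) differed least. The CCN1 difference no longer passed after median centring (−0.37, adjusted p = 0.0589, range over alternatives 0.00152 to 0.0589).

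As a share of the parental change on the log2 scale, the TTR change ran from 9.72% to 52.1%. The NR4A genes lay close together, and the members of the other sets by name did not. It was 33.5% for NR4A1, 36.4% for NR4A2 and 32.8% for NR4A3. IER3 (52.1%) and IER2 (49.8%), which had the smallest and the largest parental rise of the IER genes, were highest, while IER5 was at 29.2% and IER5L at 12.1%. CCN1 was at 44.2% and CCN2 at 9.72%, and ARC at 18.6%. After median centring the shares were 50.8% for IER2, 56.1% for IER3, 28.2% for IER5 and 8.47% for IER5L, 32.2% to 36.3% for the NR4A genes, 47.3% for CCN1, −1.76% for CCN2 and 15.8% for ARC. The shares of CCN2 and IER5L rest on TTR changes that did not pass and that 1 array could move by over 1.5 times. The CCN2 change of 0.09 became 0.16 when the untreated TTR array numbered 1 was left out, and 0.06 when either untreated array 2 or TRAIL array 1 of that line was. That of IER5L, 0.28, became 0.17 without TTR untreated array 1. These shares are a description, and differences among them were not tested.

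The third question was whether the lines already differed before TRAIL. By limma 0 of the 10 were called in either direction, against 7.11% of all genes, and 2 were higher and 0 lower at an unadjusted p under 0.05. Those were CCN2 and ARC. CCN2 was at 10.34 to 10.53 in TTR and 10.11 to 10.13 in parental cells (0.29 ± 0.09, adjusted p = 0.0725), and ARC at 5.33 to 5.54 and 5.06 to 5.28 (0.29 ± 0.13, adjusted p = 0.246). In both, the 3 TTR arrays lay above the 3 parental ones, as they did for 12% of all genes. CCN2 passed with array weights (0.26, adjusted p = 0.0448, range over alternatives 0.0448 to 0.219). The differences of the other members were −0.08 to 0.16 with overlapping groups.

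With TRAIL present, all 10 were called lower in TTR than in parental cells, against 26.4% of all genes called lower (13% after median centring, when 9 of the 10 passed). These arrays are also part of the TRAIL comparisons above, so the values are not further evidence. NR4A2 was 4.50-fold lower (−2.17 ± 0.18), IER2 4.30-fold (−2.10 ± 0.11), IER5L 4.11-fold (−2.04 ± 0.14) and IER5 3.45-fold (−1.79 ± 0.12). NR4A3 was lower by 3.25-fold, NR4A1 by 2.92-fold and ARC by 2.84-fold. IER3 (1.66-fold, −0.73 ± 0.09), CCN2 (1.51-fold, −0.60 ± 0.09) and CCN1 (1.31-fold, −0.39 ± 0.10, adjusted p = 0.0032) were closest between the lines. The CCN1 difference was −0.19 after median centring and did not pass (adjusted p = 0.144, range over alternatives 0.00168 to 0.144). In each of the 10 the TTR arrays lay below the parental ones, as in 30.5% of all genes.

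**Figure D4:**
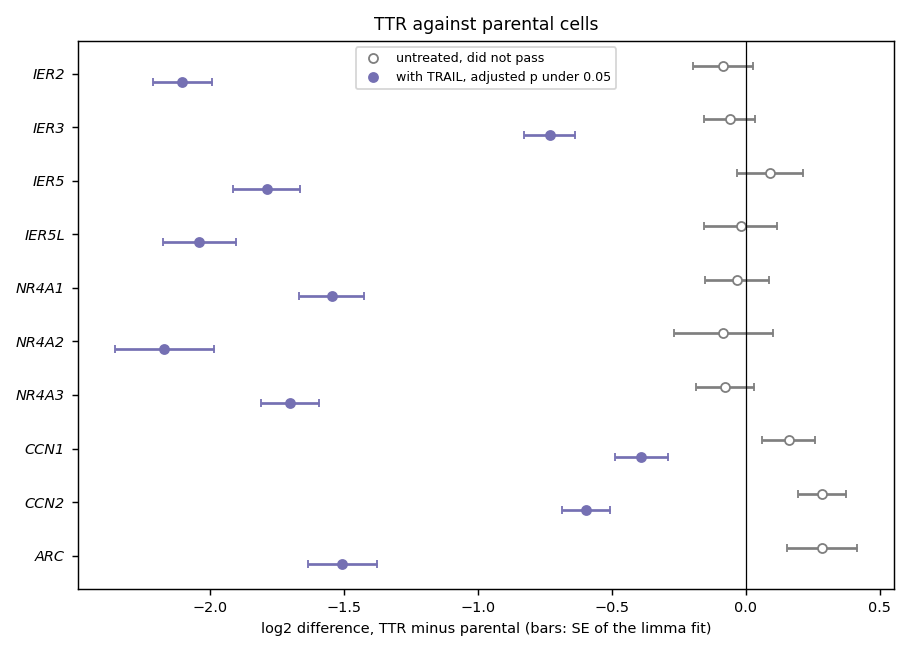
Difference between the lines (log2, TTR minus parental) of each gene without and with TRAIL, with bars for the SE of the limma fit and open points for differences that did not pass. Untreated differences lie between −0.08 and 0.29, and differences under TRAIL between −2.17 and −0.39.

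Genes around the 10 in the same pathways were counted from lists chosen by name, with earlier results of these data known. Of 26 measured early genes of other families (FOS, JUN, EGR, KLF and DUSP genes among them) 25 rose and 0 fell in parental cells by limma. Their median was 2.85, and the counts were 24 and 1 after median centring. Of all genes 28.9% were called higher there (12.6% after median centring). In TTR cells 23 rose and 0 fell at a median of 1.11 (24 and 0 at an unadjusted p under 0.05). After median centring 22 rose and 0 fell. The share of all genes called higher was 3.27% (2.43% after median centring). For the difference between the lines 19 of the 26 passed below 0 and 0 above (20 and 0 at an unadjusted p under 0.05). The median was −1.21, and 18 passed below 0 after median centring. Over all genes 14.3% were called lower (6.92% after median centring). The share of all genes at an unadjusted p under 0.05 cannot be smaller than 14.3% and is not given here. GADD45B, a stress sensor of MAP kinase signalling, rose 13.3-fold in parental and 2.23-fold in TTR cells. EGR1, a zinc finger factor, rose 38.8-fold and 29.8-fold, and the difference between these changes did not pass (−0.38 ± 0.17, adjusted p = 0.0847). Its level was lower in TTR than in parental cells, both untreated (−0.61 ± 0.12, adjusted p = 0.00391) and with TRAIL (−0.99 ± 0.12, adjusted p = 2.23e-06).

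Regulators of early genes were read next. Of all genes 29.9% were called lower with TRAIL in parental cells (46.7% after median centring and 31.4% after quantile normalization). The shares called higher were 28.9%, 12.6% and 19.1%. Of 22 measured regulators of the SRF, CREB and YAP arms, 2 rose and 10 fell in parental cells (median −0.20, and 2 and 14 after median centring or 4 and 8 after quantile normalization) and 0 were called in TTR cells by limma (4 higher and 2 lower at an unadjusted p under 0.05). The 2 that rose in parental cells were CRTC1 (0.68, adjusted p = 5.89e-05) and SRF itself (0.57, adjusted p = 2.05e-04). After median centring they were at 0.39 and 0.28 and still passed. In TTR cells they did not pass (0.26 and 0.37, adjusted p = 0.185 and 0.0519), but SRF did after quantile normalization (0.0378). The largest of the named falls was RPS6KA5, the kinase MSK1 that phosphorylates CREB and histone H3 at early genes, which fell 2.55-fold (−1.35 ± 0.12, adjusted p = 5.28e-08). TEAD2 fell 1.97-fold (−0.98 ± 0.14) and CREB1 1.66-fold (−0.73 ± 0.10). In TTR cells these were at −0.27, −0.33 and −0.13 and did not pass (adjusted p = 0.204, 0.190 and 0.504). RPS6KA5 was already lower in untreated TTR than in untreated parental cells (−0.45 ± 0.12, adjusted p = 0.0303). It was the 1 regulator of 22 called there, against 7.11% of all genes in either direction. After quantile normalization it no longer passed there (adjusted p = 0.0538).

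Of 18 measured SRF and YAP target genes outside the 10, 3 rose and 10 fell in parental cells, where CCN1 and CCN2 rose. The median was −0.36, and 1 rose and 13 fell after median centring. Of all genes 29.9% were called lower and 28.9% higher, or 46.7% and 12.6% after median centring. EDN1, the vasoconstrictor endothelin, rose 2.29-fold in parental (1.19 ± 0.16) and 1.75-fold in TTR cells (0.81 ± 0.16, adjusted p = 0.00684). The YAP targets ANKRD1 (−0.83 ± 0.13) and AXL (−0.52 ± 0.09) fell in parental cells and stood at −0.09 and 0.03 in TTR cells. In untreated TTR cells 6 of the 18 were higher than in parental cells and 0 lower (8 and 1 at an unadjusted p under 0.05), against 3.64% of all genes called higher, among them EDN1 (1.01 ± 0.16).

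Relatives and receptors of the CCN proteins were also read. Of all genes 28.9% were called higher with TRAIL in parental cells (12.6% after median centring and 19.1% after quantile normalization). In TTR cells 3.27% were. Of the 4 CCN relatives, CCN5 (0.48 ± 0.14, adjusted p = 0.00698) and CCN4 (0.37 ± 0.11, adjusted p = 0.00973) rose in parental cells and CCN3 was at 0.30 (adjusted p = 0.0677). After median centring CCN5 (0.19) and CCN4 (0.08) no longer passed (adjusted p = 0.236 and 0.546), nor did CCN4 after quantile normalization (0.606). In TTR cells 0 were called by limma or at an unadjusted p under 0.05. Of 8 measured CCN receptors 1 rose and 6 fell in parental cells (median −0.42, and 1 and 7 after median centring or 1 and 4 after quantile normalization, against 29.9%, 46.7% and 31.4% of all genes called lower), and 1 rose and 0 fell in TTR cells (1 and 0 at an unadjusted p under 0.05). ITGAV and ITGA6, subunits of integrins that bind CCN proteins, fell 2.95-fold (−1.56 ± 0.12) and 2.61-fold (−1.38 ± 0.12), while the endocytic receptor LRP1 rose 2.24-fold in parental and 2.12-fold in TTR cells. The retinoid X receptors RXRA, RXRB and RXRG, dimer partners of NR4A1 and NR4A2, did not pass for TRAIL in either line (−0.14 to 0.13, and 0 at an unadjusted p under 0.05, by limma). After median centring RXRA (−0.43, adjusted p = 0.00125) and RXRB (−0.37, adjusted p = 0.0286) passed as lower with TRAIL in parental cells. RXRA was lower in untreated TTR cells (−0.44 ± 0.10, adjusted p = 0.0104).

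The genes most like each member over the 12 arrays were found by Pearson correlation, given as a description because the arrays fall into 4 groups and share one response. IER3 was closest to IER2 (r = 0.995), another of the 10. NR4A1 was closest to PTGER4, a prostaglandin receptor (r = 0.996), and NR4A3 to SNORD75 (r = 0.996) and SNAI1 (r = 0.995). IER5 was closest to RTL5 (r = 0.997) and the small GTPase RHOB (r = 0.994), and IER5L to the histone gene H2AX (r = 0.993). CCN2 was closest to the insulin receptor substrate IRS2 (r = 0.980) and CCN1 to POLE, a DNA polymerase (r = 0.990). ARC was closest to KLF9 (r = 0.991), NR4A2 to COL1A1 (r = 0.991) and IER2 to the histone gene H2AC11 (r = 0.997).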

How the data were processed

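The deposited values are log2 expression levels per feature. The authors ran RMA in Affymetrix Power Tools, per the submitters' processing notes, which corrects background and brings arrays to a common scale as usually run. Its versions, settings and genome build: not given in the sources used here. The table held 33252 features. Of these, 19460 named 1 gene in the platform annotation, 1754 named several and 12038 were not named. Through gene identifiers, 19429 matched RefSeq (GRCh38.p14, names only) and 0 symbols changed. The feature with the highest mean was kept per gene, with no filter on low values. No 2 arrays were identical (0 pairs) and 0 columns lacked a sample.

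A limma 3.58.1 model (R 4.3.3) of group means was fitted to all 12 arrays by lmFit and eBayes, with 8 residual and 7.87 prior degrees of freedom and two-sided tests, with Benjamini-Hochberg adjustment over 18417 genes. The procedure was tested on simulated data. With 3 arrays against 3, the smallest p of an exact permutation test is 0.1, and it was not used. Tables and figures were made in Python 3.11.15 with matplotlib 3.10.9.

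The members and gene lists were chosen with earlier results of these data known. Named genes were the 10 members, the 3 genes most correlated with each member, and picks from each list. The picks were the 3 with the smallest p for TRAIL in parental cells and the 2 for the difference between lines. Not all are printed. CRTC1 and SRF were added as the regulators called higher in parental cells. MRTFA, ATF1, FLNA, SDC4, EGR2, BTG2 and SIK1 were not analysed here, and some other listed genes are not reported. The replicate numbers were checked for pairing by the correlation of deviations from group means. Same-numbered TTR untreated and TRAIL arrays correlated at 0.146 to 0.395, each over 0.1, which is a hint of pairing from the data. The main results, those of TTR cells included, come from the fit without a replicate block. Fits with the block are given as alternatives only. In the other comparisons of the report at least 1 pair lay under 0.1.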

Additional observations from a re-analysis of the deposited data

Results flagged for a closer look

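Every one of the 10 genes had a TRAIL change in TTR cells that differed from that in parental cells by the limma test of the difference itself. The differences, TTR minus parental on the log2 scale, were −2.09 for NR4A2, −2.02 for IER2, −2.02 for IER5L, −1.88 for IER5, −1.79 for ARC, −1.62 for NR4A3, −1.51 for NR4A1, −0.88 for CCN2, −0.67 for IER3 and −0.55 for CCN1, which no longer passed after median centring (−0.37, adjusted p = 0.0589). With 3 arrays per group, no array was tested as an outlier.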

How the results depend on the processing

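The 10 rises in parental cells kept their direction and passed under all alternatives. Leaving out 1 array gave 6 to 8 called in TTR cells, and kept 0 called between untreated lines and 10 in the other comparisons. Their median changes ranged from 2.21 to 2.42 (parental), 0.71 to 0.76 (TTR), −0.02 to 0.06 (untreated lines), −1.70 to −1.55 (lines under TRAIL) and −1.80 to −1.59 (difference of changes). Median centring moved the medians to 2.00, 0.64, −1.42 and −1.52 by its construction, and quantile normalization moved the last to −1.84. Array weights gave 1 gene higher in untreated TTR cells. Signs turned for uncalled values only. In TTR cells CCN2 stood at −0.012 after median centring. Between untreated lines, array weights gave −0.000382 for IER5, 0.038 for IER5L and 0.011 for NR4A1, and median centring 0.0012 for IER5L. Leaving out 1 array gave −0.17 to 0.000478 for IER2, −0.12 to 0.0094 for IER3, −0.10 to 0.13 for IER5L, −0.12 to 0.12 for NR4A1 and −0.31 to 0.14 for NR4A2. Fitted without the parental arrays given TRAIL, an alternative chosen after seeing the data, ARC passed in TTR cells (adjusted p = 0.0172). The replicate block changed no call of a member: in TTR cells ARC did not pass with it over all arrays (adjusted p = 0.0566), and in the TTR groups alone it passed with the block (0.0156) and without it (0.0273). For the difference of changes, only the groups compared are all 12 arrays, so that alternative gave no separate value. Signal over background was not measured here, which limits low levels. The cause of the other shifts was not tested.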
